A study of Mus musculus with 8 samples.

Results

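The genes described here run DNA replication and cell division. They were taken from a fixed list of 36 gene symbols, of which 18 act in replication and the entry into S phase (G1/S) and 18 in mitosis (G2/M). On the array 35 of the 36 were paired with at least 1 probe set, a group of short probes that reads 1 transcript region, out of 18193 genes named there in all. Each gene was represented by its probe set with the highest mean over the 8 arrays. A probe set was tested where its signal reached 200 on at least 4 of the 8 arrays, which 34 of the genes did, 17 of each role. The thymidylate synthase gene Tyms missed this minimum, and no probe set was paired with the cyclin gene Ccnb1. Of the 34 tested, 32 reached 200 on all 8 arrays, and Kif20a and Gins2 fell short of it on knockout arrays only.

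The livers came from mouse pups of the inbred strain C57BL/6J on day of life 3. One group lacked glycerol kinase, the enzyme that phosphorylates glycerol to glycerol 3-phosphate and is encoded on the X chromosome, and the other held wild-type littermates of matching age. The labels give all pups as male and state no treatment other than the genotype. Each of 4 wild-type and 4 knockout livers was read on its own Affymetrix Mouse 430 2.0 array, and the pups are numbered 1 to 4 within a group. The labels do not say how many litters the pups came from. The glycerol kinase transcript itself was not analysed here, so the genotype rests on the labels.

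A cell copies its DNA once per cycle and then parts the copies. Before S phase the loading factors Cdc6 and Cdt1 place the ring of Mcm proteins on DNA, and with the GINS complex this ring becomes the helicase that opens the helix, while ribonucleotide reductase and thymidine kinase supply the building blocks. In mitosis Cdk1 with its cyclins, the Aurora and Polo kinases, the spindle motors and the checkpoint proteins arrange and part the chromosomes. Liver of newborn mice holds dividing hepatocytes and, for a short time after birth, blood-forming cells that also divide, so that these transcripts come from more than one cell type. In RNA from whole liver, fewer dividing cells and less RNA of these genes per cell cannot be told apart.

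Some differences between the arrays bear on these values. The array labelled wild type 4, from a pup given as male, carried the X-inactivation RNA Xist at 10506, against 196 to 396 on the other 7. The Y-linked gene Eif2s3y read 1.3 on that array and 685 to 1164 on the other 7. Both are the pattern of a female, against the label, so the wild-type group was of mixed sex by these signals. For the transferrin receptor control, the signal near the 3' end over that near the 5' end lay between 6.50 and 6.72 on replicates 1 and 2 of both groups and between 4.21 and 4.83 on replicates 3 and 4. The same ratio for pyruvate carboxylase, a sign of RNA integrity, stood at 7.03 on knockout 1 and 4.93 on knockout 2, and between 2.06 and 3.46 on the other 6 arrays, so that it was higher in the knockout within replicates 1 and 2. The beta-actin ratio was also highest on knockout 1 (1.74). The ratio for Gapdh set that array apart by little, at 0.896 beside 0.783 to 0.886 on the wild-type arrays. Each pair of replicates holds 2 arrays of each group, so the comparison of the members is also given within replicates 1 and 2 and within replicates 3 and 4. Over all genes, the median log2 fold change between knockout and wild type was -0.029 (n = 20395 probe sets).

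The roles differ in their promoters, a property that the list did not use. The window from 250 bases before to 50 bases after the start of the gene was taken from RefSeq (GRCm38.p6) for the 29 members found there, 14 of replication and 15 of mitosis, with the first start listed per gene. The E2F motif, the target of the E2F transcription factors that open S phase, was searched as TTTGGCGC or TTTCGCGC or TTTCCCGC on both strands. It lay in 6 of 14 replication promoters (42.9%) and in 1 of 15 mitosis promoters (6.67%, Cdk1), beside 1.91% of all 27025 promoters. The cell cycle homology region (CHR), which the DREAM and MuvB complexes bind in late cell cycle genes, was searched as TTTGAA or TTCGAA on both strands. It lay in 2 of 14 replication promoters (14.3%) and in 12 of 15 mitosis promoters (80.0%), beside 19.4% of all promoters. The CCAAT box was found in 8 of 14 (57.1%), 13 of 15 (86.7%) and 37.9%. A match shows the letters and not the binding of a factor.

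The promoters below are those of the 2 genes of each role with the smallest p in the comparison that follows, and of Mcm5, which has the smallest p among replication genes with an E2F match in the stretch shown and was added after the matches were seen. Each run holds the 250 bases before the start, 5′ to 3′ on the gene's own strand, with matches to any of these motifs in capitals (ATTGG is CCAAT on the other strand).
Rrm2, chr12:24708004-24708253, plus strand, GRCm38.p6: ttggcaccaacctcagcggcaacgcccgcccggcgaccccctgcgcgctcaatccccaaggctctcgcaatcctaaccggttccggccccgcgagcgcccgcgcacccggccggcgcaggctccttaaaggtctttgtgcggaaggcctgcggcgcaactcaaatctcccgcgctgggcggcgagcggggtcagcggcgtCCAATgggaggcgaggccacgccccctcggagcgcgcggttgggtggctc
Pcna, chr2:132253181-132253430, minus strand, GRCm38.p6: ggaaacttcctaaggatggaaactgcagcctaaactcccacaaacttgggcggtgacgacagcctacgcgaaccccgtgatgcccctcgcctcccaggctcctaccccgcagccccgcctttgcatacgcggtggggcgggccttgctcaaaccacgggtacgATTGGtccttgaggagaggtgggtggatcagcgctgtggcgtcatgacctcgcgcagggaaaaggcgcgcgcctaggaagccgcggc
Mcm5, chr8:75109259-75109508, plus strand, GRCm38.p6: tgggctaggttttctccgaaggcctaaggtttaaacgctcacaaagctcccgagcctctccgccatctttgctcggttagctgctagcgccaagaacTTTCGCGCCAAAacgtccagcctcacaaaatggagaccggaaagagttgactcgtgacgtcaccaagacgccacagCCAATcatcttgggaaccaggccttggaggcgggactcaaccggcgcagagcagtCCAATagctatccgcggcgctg
Cdk1, chr10:69352913-69353162, minus strand, GRCm38.p6: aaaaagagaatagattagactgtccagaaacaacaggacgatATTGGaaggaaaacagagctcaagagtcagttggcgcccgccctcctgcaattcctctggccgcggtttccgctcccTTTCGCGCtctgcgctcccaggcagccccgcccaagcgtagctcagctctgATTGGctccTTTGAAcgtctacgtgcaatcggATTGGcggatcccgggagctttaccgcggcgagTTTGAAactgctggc
Bub1, chr2:127831860-127832109, minus strand, GRCm38.p6: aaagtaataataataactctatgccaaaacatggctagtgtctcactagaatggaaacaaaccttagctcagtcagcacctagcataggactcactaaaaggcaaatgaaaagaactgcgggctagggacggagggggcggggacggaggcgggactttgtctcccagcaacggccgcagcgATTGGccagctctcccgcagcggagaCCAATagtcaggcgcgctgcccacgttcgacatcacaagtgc

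In these windows Cdk1 held 1 E2F match and 2 CHR matches, the nearer of which begins 15 bases before the start, and Mcm5 held 2 E2F matches, which overlap, and no CHR match. Bub1 held 1 CHR match, which begins 15 bases into the transcript and is not in the stretch shown. Rrm2 and Pcna held neither in the letters searched.

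The comparison of knockout with wild-type liver asks how transcripts of cell division stand in liver without glycerol kinase. All 34 tested members had a log2 fold change below 0, at a median of -0.48, where 54.2% of all tested probe sets lay below 0. The values ran from -1.49 for Gins2 to -0.16 for Bub1b, and the median was -0.55 for the replication genes and -0.33 for the mitosis genes. None of the 34 passed the test over all probe sets (limma, Benjamini-Hochberg adjusted p between 0.257 and 0.847), beside 0.152% of all probe sets called lower and 0.299% called in either direction. At an unadjusted p under 0.05, 9 of the 34 were lower, 8 replication genes and Cdk1, beside 7.32% of all tested probe sets. That count was 0 without wild type 1, 3 without wild type 2 or knockout 1, and 1 without wild type 3 or knockout 2. It was 12 without wild type 4 and 24 without knockout 4. It was 4 without limma's intensity trend and 15 with the pair of replicates as a block. Without knockout 1 the median was -0.25, with 31 of 34 below 0. For none of the 34 did all knockout arrays lie below all wild-type arrays, which 4.85% of the tested probe sets did. For Rrm2, Pcna, Mcm5, Cdk1 and Birc5, wild type 4 was the only wild-type array below knockout 4. For Gins2, Bub1, Ccna2, Cdc6, Ccne2, Bub1b and Plk1, other wild-type arrays lay below knockout 4 as well. The share of all probe sets without wild type 4 was not counted.

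Ribonucleotide reductase makes the deoxyribonucleotides. Rrm2, its small subunit, had signals of 13280, 11667, 13837 and 10474 on wild type 1 to 4 and of 3851, 6103, 9555 and 11524 on knockout 1 to 4. Knockouts 1 to 3 lay below every wild-type array, and knockout 4 lay among them. The mean was 12314 ± 1534 in wild type and 7758 ± 3436 in the knockout (SD, n = 4 each), a log2 fold change of -0.78 ± 0.29 (SE; limma adjusted p = 0.257), and -0.48 without knockout 1. Its other 2 probe sets stood at -0.65 and -0.97, and the large subunit Rrm1 at -0.55. The thymidine kinase gene Tk1 stood at -0.46. Tyms, which was not tested, had signals of 179 to 220 on the wild-type arrays and of 23.4, 58.9, 195 and 217 on knockout 1 to 4.

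Pcna encodes the sliding clamp that holds the polymerase on DNA. Its signals were 13932, 13012, 15469 and 12239 on wild type 1 to 4 and 5602, 8167, 11475 and 12923 on knockout 1 to 4. Here too knockouts 1 to 3 lay below all wild-type arrays and knockout 4 within their range. The means were 13663 ± 1388 and 9542 ± 3296 (SD, n = 4), a log2 fold change of -0.58 ± 0.23 (SE; limma adjusted p = 0.280), and -0.35 without knockout 1.

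By their brightest probe sets the 6 genes of the Mcm ring lay between -0.86 and -0.53. Their other tested probe sets ran from -1.24 to -0.295, both of Mcm3. Mcm5 had signals of 5809, 5160, 5220 and 4536 in the wild-type livers and of 1212, 2461, 4342 and 5047 in the knockout. Knockouts 1 to 3 lay below all wild-type arrays and knockout 4 within their range. Its log2 fold change was -0.86 ± 0.37 (SE, n = 4; limma adjusted p = 0.323), and -0.45 without knockout 1. Mcm3 stood at -0.86, Mcm2 at -0.70, Mcm4 at -0.68, Mcm6 at -0.53 and Mcm7 at -0.53. Of the loading factors, Cdt1 had a value of -0.52 and Cdc6 of -0.40, the value nearest 0 among the replication genes by their brightest probe sets. A second tested probe set of Cdt1 stood nearer to 0, at -0.244. The signals of Cdc6 were 714, 987, 1275 and 699 in the wild-type livers and 357, 674, 850 and 999 in the knockout, so that 2 knockout arrays lay inside the wild-type range (adjusted p = 0.597). Without knockout 1 the value was -0.10 and without wild type 3 it was -0.23.

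Gins2, a subunit of the GINS complex, had the largest value of the list. Its signals were 1113, 994, 873 and 699 on wild type 1 to 4 and 128, 108, 668 and 931 on knockout 1 to 4. The knockout arrays fell into a low pair, replicates 1 and 2, and a pair near wild type. The means were 920 ± 177 and 459 ± 408 (SD, n = 4), a log2 fold change of -1.49 ± 0.59 (SE; limma adjusted p = 0.286). A second probe set for Gins2 read 520, 490, 410 and 414 in the wild-type livers and 28.1, 281, 478 and 416 in the knockout livers, so that knockout 2 was not as low there. The partner subunit Gins1 stood at -0.67.

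Among the regulators of S phase entry, E2f1 stood at -0.51 and cyclin E1 (Ccne1) at -0.53. Cyclin E2 (Ccne2) had signals of 2365, 975, 1015 and 700 in the wild-type livers and 550, 651, 1060 and 1259 in the knockout livers. Wild type 1 stood far above the other arrays, and the groups overlapped (-0.44 ± 0.37 on the log2 scale, limma adjusted p = 0.630). Without wild type 1 the value was -0.087, without knockout 1 it was -0.24, and without wild type 4 it was -0.66.

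**Figure D1:**
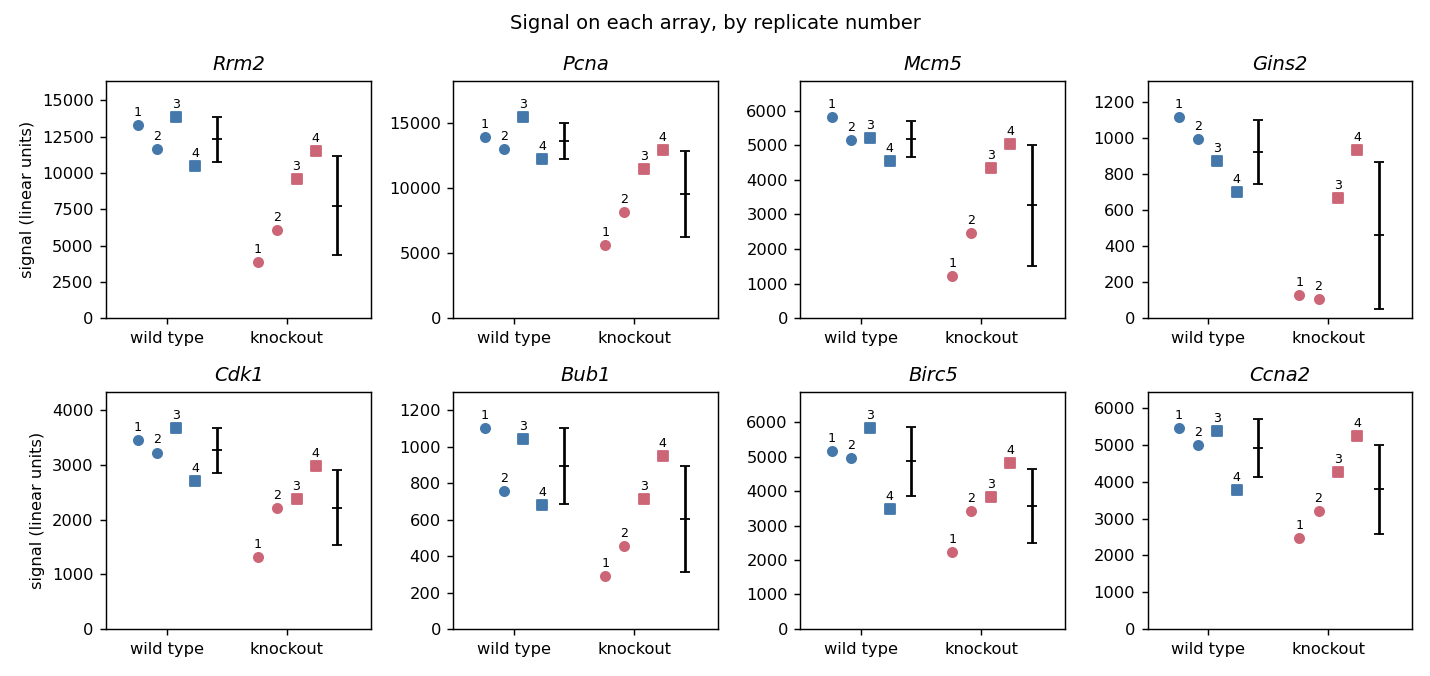
Signal on each array (linear units) for 4 replication genes (top row) and 4 mitosis genes (bottom row), with the replicate number beside each point, circles for replicates 1 and 2, squares for replicates 3 and 4, and the mean ± SD of each group of 4 beside it. Knockout 1 is the lowest array in all panels but that of Gins2, and knockout 4 lies within the wild-type range in all 8.

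The mitosis genes lay closer to 0. Cdk1, the kinase that drives cells into mitosis, had signals of 3447, 3225, 3675 and 2702 on wild type 1 to 4 and of 1308, 2217, 2372 and 2975 on knockout 1 to 4. As for Rrm2, 3 knockout arrays lay below all wild-type arrays. Its means were 3262 ± 416 and 2218 ± 689 (SD, n = 4), a log2 fold change of -0.60 ± 0.23 (SE; limma adjusted p = 0.265), and -0.37 without knockout 1. By their brightest probe sets its cyclin partners stood nearer to 0, Ccnb2 at -0.35 and Ccna2, which also acts in S phase, at -0.41. That probe set of Ccna2 read 5468, 5014, 5392 and 3773 in the wild-type livers and 2481, 3207, 4267 and 5238 in the knockout livers (adjusted p = 0.436, log2 fold change -0.23 without knockout 1), with 2 knockout arrays inside the wild-type range. The second probe set of Ccna2 stood at -0.74 (limma adjusted p = 0.166), further from 0 than Cdk1. It read 2070, 2290, 2714 and 3976 on knockout 1 to 4 beside 3411 to 5643 in wild type.

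The spindle checkpoint, which holds mitosis until all chromosomes are attached, gave unequal values by the brightest probe sets. Bub1 had signals of 1104, 755, 1045 and 682 in the wild-type livers and of 292, 458, 715 and 952 in the knockout, a log2 fold change of -0.66 ± 0.32 (SE, n = 4; limma adjusted p = 0.383), and -0.36 without knockout 1. Bub1b read 811, 816, 1146 and 781 in the wild-type livers and 573, 592, 926 and 1189 in the knockout livers (-0.16 ± 0.24; adjusted p = 0.802). For Bub1b knockout 4 was the highest of all 8 arrays, and the value was -0.016 without knockout 1, -0.031 without knockout 2, -0.036 without wild type 3 and -0.36 without knockout 4. Cdc20, the activator of the ubiquitin ligase that the checkpoint holds back, stood at -0.22. Second tested probe sets stood at -0.33 for Bub1b and at -0.0024 for Cdc20, so values also differed between probe sets of the same gene.

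Of the chromosomal passenger complex, Birc5 (survivin) had signals of 5168, 4960, 5833 and 3478 in the wild-type livers and 2221, 3435, 3823 and 4810 in the knockout livers. Knockouts 1 and 2 lay below all wild-type arrays, knockout 2 by little (-0.47 ± 0.23 on the log2 scale, limma adjusted p = 0.393; -0.26 without knockout 1). Its kinase Aurkb stood at -0.33, and the centrosomal kinase Aurka at -0.20. The Polo kinase Plk1 had signals of 729, 920, 1741 and 863 in the wild-type livers and 464, 771, 1119 and 1469 in the knockout livers, with 3 knockout arrays inside the wild-type range (-0.19 ± 0.35; adjusted p = 0.847). It stood at 0.11 without knockout 1 and at 0.072 without wild type 3, and at -0.43 without knockout 4.

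The other mitosis genes were Kif20a, a motor of cytokinesis (-0.49), the midzone protein Prc1 (-0.43), the topoisomerase Top2a (-0.40), the spindle protein Nusap1 (-0.26), the centromeric histone Cenpa (-0.23), the proliferation marker Mki67 (-0.23) and the spindle motor Kif11 (-0.21). Mki67 and Nusap1 were the members for which knockout 1 lay within the wild-type range. Mki67 read 7946, 8008, 7834 and 9829 on knockout 1 to 4 beside 7590 to 12574 in wild type, so that all 4 knockout arrays lay within the wild-type range for this common marker of proliferation.

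**Figure D2:**
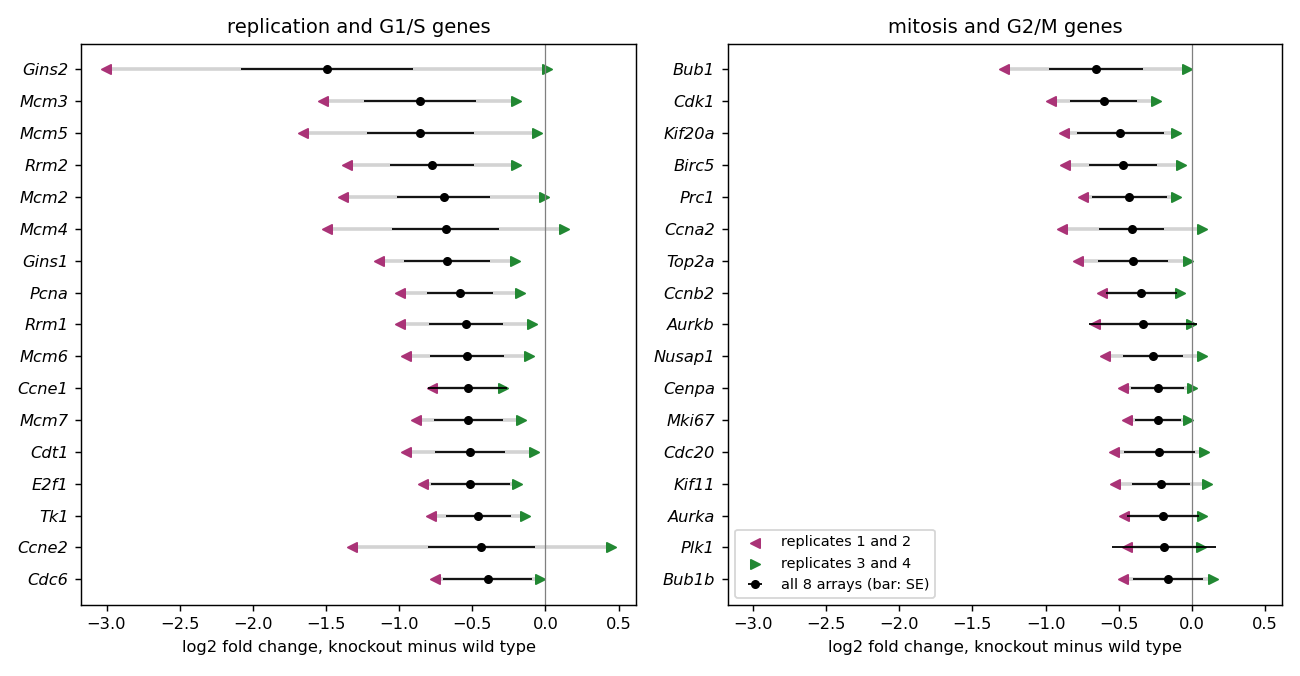
Log2 fold change of each tested member, knockout minus wild type, with replication genes on the left and mitosis genes on the right, sorted by value. Black points with bars give the fit of all 8 arrays ± SE, and triangles give replicates 1 and 2 (left-pointing) and replicates 3 and 4 (right-pointing) fitted alone; the medians are -0.997 and -0.61 in the first pair and -0.11 and -0.0057 in the second.

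Replication was set against mitosis on each array by the mean over the 17 genes of each role of log2(signal + 16) minus the wild-type mean of the gene. The replication means were 0.12, -0.010, 0.19 and -0.30 on wild type 1 to 4 and -1.54, -0.80, -0.25 and -0.024 on knockout 1 to 4. The mitosis means were 0.061, -0.10, 0.28 and -0.24, and -0.96, -0.44, -0.17 and 0.20. Knockout 1 thus stood at 0.344 of the wild-type level for replication and at 0.513 for mitosis, knockout 2 at 0.575 and 0.735, knockout 3 at 0.843 and 0.887, and knockout 4 at 0.983 and 1.15. The replication mean was the lower of the pair on all 4 knockout arrays and on wild type 3 and 4.

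The difference, replication minus mitosis, was 0.059, 0.091, -0.084 and -0.066 on the wild-type arrays and -0.58, -0.36, -0.073 and -0.23 on the knockout arrays. Knockouts 1, 2 and 4 lay below all wild-type arrays and knockout 3 among them. The mean was 0 ± 0.088 in wild type, where it is 0 by construction, and -0.31 ± 0.21 in the knockout (SD, n = 4), a distance larger than the SD within a group of 0.16. The size depends on the summary. With the median over genes it was -0.18, with the dimmest tested probe set per gene -0.18, with Gins2 left out -0.25, and with stricter lists that drop Mki67, Top2a, Ccna2, Cdk1, Ccne1, Ccne2 and E2f1 it was -0.36. By the brightest probe sets, all 17 replication genes had a log2 fold change below the median of the mitosis genes (-0.333). Of the mitosis genes, 2, Cdk1 and Bub1, lay below the median of the replication genes (-0.545). Among the further tested probe sets, 1 each of Rrm1 (-0.325), Mcm3 (-0.295) and Cdt1 (-0.244) lay above the mitosis median. Those of Ccna2 (-0.743) and Prc1 (-0.602) lay below the replication median, and the remaining ones crossed neither. A score over genes that were listed with earlier results in view carries no p here.

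**Figure D3:**
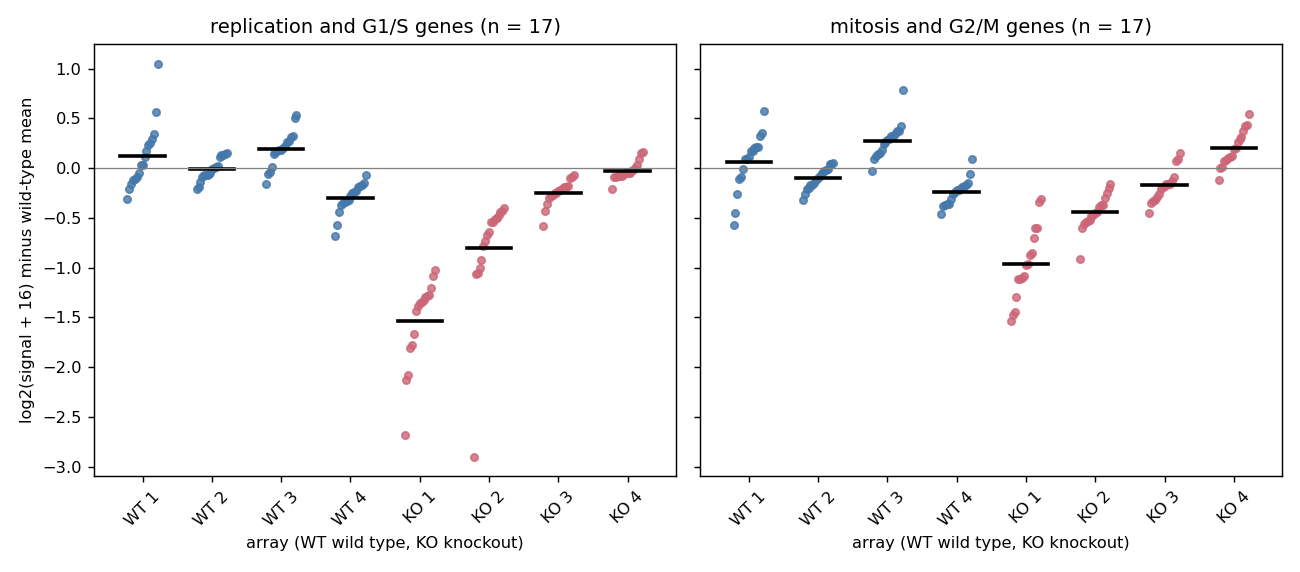
Log2(signal + 16) minus the wild-type mean for each of 17 replication genes (left panel) and 17 mitosis genes (right panel), 1 point per gene and array, with the mean over genes as a bar. On knockout 1 the bars stand at -1.54 and -0.96, and on knockout 4 at -0.024 and 0.20.

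The knockout livers differed widely among themselves, with an SD of 0.67 for the replication mean beside 0.22 in wild type (n = 4 each). Knockout 1 had the lowest signal of all 8 arrays for 31 of the 34 members, beside 25.3% of all tested probe sets; the exceptions were Mki67, Nusap1 and Gins2. It lay below all wild-type arrays for 32 (33.4% of all probe sets), knockout 2 for 28 (26.6%) and knockout 3 for 10 (21.6%). Of the 10 for knockout 3, 9 are replication genes (Mcm3, Mcm5, Mcm7, Pcna, Rrm2, Ccne1, E2f1, Gins1 and Gins2) and 1 is Cdk1. Knockout 4 lay within the wild-type range for 31 members (62.5% of all probe sets) and above it for Bub1b, Aurka and Kif11. Knockouts 1, 2, 3 and 4 stood in that order from low to high for 30 members, beside 14.9% of all probe sets. The pyruvate carboxylase 3'/5' ratio was also highest on knockout 1 (7.03) and next on knockout 2 (4.93), with knockouts 3 and 4 at 2.07 and 2.06. With that ratio as a covariate, fitted after the data were seen, the median of the members was -0.29, with 31 of 34 below 0 (51.2% of all probe sets) and 6 lower at an unadjusted p under 0.05 (7.44%).

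Within replicates 1 and 2 all 34 members lay below 0, as did 54.8% of all probe sets, at a median of -0.87. There 24 of the 34 were lower at an unadjusted p under 0.05, beside 8.45% of all probe sets, and 1, Gins2, fell at an adjusted p under 0.05 (limma, log2 fold change -3.00, adjusted p = 0.00813; 0.0294% of all probe sets). Its signals on knockout 1 and 2, 128 and 108, lay under the minimum of 200 and under the medians of those arrays (147 and 150), so Gins2 passed the minimum there through the wild-type arrays, and the size of its fold is uncertain. Within replicates 3 and 4 the median was -0.045, 24 of 34 lay below 0 (50.1% of all probe sets), and 0 were lower at an unadjusted p under 0.05 (7.33%). The wild-type arrays of this pair lay far apart. The replication means were 0.19 on wild type 3 and -0.30 on wild type 4, the array with the female signal, and the mitosis means 0.28 and -0.24. Knockouts 3 and 4 lay between those arrays on both means, so the values of this pair depend on wild type 4. The median of the replication genes was -0.997 in the first pair and -0.11 in the second, and that of the mitosis genes -0.61 and -0.0057.

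The difference between the pairs was tested with an interaction term. It passed for 1 of the 34 members, Gins2, among 2 of 20395 probe sets (0.00981%): its knockout effect was higher by 3.01 ± 0.31 in replicates 3 and 4 (log2 scale, SE; limma adjusted p = 0.0410). The call held in 3 of 14 other settings, and adjusted p lay between 0.0567 and 0.379 in the others, which include leaving out any array but knockout 2. The interaction rests on the same 2 dim signals. The second probe set of Gins2 gave 2.30 and was not called (adjusted p = 0.493). At an unadjusted p under 0.05 the effect was lower in replicates 1 and 2 for 12 members, 10 of them replication genes, beside 5.96% of all probe sets.

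Genes of the same machinery outside the list were read from lists of names. For these lists and the cell markers below, the shares over all tested probe sets are the background. There 54.2% lay below 0, 7.32% were lower at an unadjusted p under 0.05 (limma), and 0.152% were called lower. At that unadjusted p, 1453 of the 20395 were higher. Of 43 other replication genes, such as the origin recognition complex, the polymerases and the clamp loader, 41 were tested, 40 lay below 0, and 0 were called in either direction, at a median of -0.49 (17 lower at an unadjusted p under 0.05, limma). The flap endonuclease Fen1, which trims Okazaki fragments, stood at -0.72 ± 0.16 (SE, n = 4; limma adjusted p = 0.0903). It read 2288, 1857, 1905 and 2463 on knockout 1 to 4 beside 3541, 3056, 3098 and 4441 on wild type 1 to 4, so that the groups did not overlap. The single-strand binding protein gene Rpa1 stood at -0.71 ± 0.21 (adjusted p = 0.166). Fen1 stood at -0.67 in replicates 1 and 2 and at -0.77 in replicates 3 and 4, and Rpa1 at -1.09 and -0.34.

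Of 51 other mitosis genes 50 were tested, 49 lay below 0 and 0 were called, at a median of -0.34 (11 lower at an unadjusted p under 0.05, limma). Their smallest p values were those of the centromere protein genes Cenph (-0.90 ± 0.26, adjusted p = 0.166) and Cenpk (-0.89 ± 0.28, adjusted p = 0.192). Cenph stood at -1.18 in replicates 1 and 2 and at -0.62 in replicates 3 and 4, and Cenpk at -1.48 and -0.30. In replicates 1 and 2 and then in replicates 3 and 4, the medians were -0.87 and -0.10 for the replication list and -0.74 and -0.018 for the mitosis list. Orc4 and the securin gene Pttg1 were the 2 genes of these lists above 0.

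Among 16 genes of E2F factors, pocket proteins and their partners, 10 lay below 0 and 0 were called (median -0.17; 1 lower and 1 higher at an unadjusted p under 0.05, limma). E2f7 stood at -0.46 ± 0.18 and the pocket protein gene Rbl2 at 0.33 ± 0.15 (SE, n = 4; adjusted p = 0.282 and 0.334). The median of this list was -0.38 in replicates 1 and 2 and 0.064 in replicates 3 and 4. Of 10 tested D cyclins, their kinases and cell cycle inhibitors, 1 fell and 0 rose (4 lower and 1 higher at an unadjusted p under 0.05, limma). That was cyclin D1 (Ccnd1), which drives cells out of G1, at 1734 ± 390 in wild type and 774 ± 104 in the knockout (SD, n = 4). Its log2 fold change was -1.13 ± 0.19 (SE), with a limma adjusted p of 0.0466. Its signals of 888, 643, 816 and 750 on knockout 1 to 4 lay below the 1174 to 2051 of wild type, and it stood at -0.98 in replicates 1 and 2 and at -1.27 in replicates 3 and 4. The call was lost in 14 of 23 other settings, among them without wild type 2, 3 or 4 and without knockout 1, 2 or 3 (adjusted p from 0.0643 to 0.173). It was also lost with the replicate number as a block (adjusted p = 0.0858). The kinase gene Cdk4 (-0.50) and the inhibitor genes Cdkn1c (-0.85) and Cdkn2c (-0.82) were the others lower at the unadjusted p. The higher gene was the inhibitor gene Cdkn1a, at 0.95 ± 0.40 (SE, limma adjusted p = 0.310). Cdkn1a stood at 1.54 in replicates 1 and 2 and at 0.37 in replicates 3 and 4.

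Markers of the cell types in newborn liver were read on the same arrays. Of 13 tested erythroid markers 12 lay below 0 and 0 were called (0 at an unadjusted p under 0.05, limma), at a median of -0.17, with -0.61 in replicates 1 and 2 and 0.17 in replicates 3 and 4. Their mean levels were 0.14, -0.045, 0.15 and -0.24 on wild type 1 to 4 and -0.63, -0.47, -0.019 and 0.29 on knockout 1 to 4, so the arrays with the lowest division genes also had the lowest erythroid means. Within the list the values differed: on knockout 1 the red cell membrane gene Epb42 read 522 beside 1217 to 2229 in wild type, while the heme synthesis gene Alas2 read 11427 beside 8877 to 11901. The summed signal of the list ran from 76120 to 97157 in wild type and from 65343 to 102984 in the knockout, and no marker was listed at 0. The part of this cell type in the result was not tested.

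The hepatocyte markers had 0 of 9 below 0 and a median of 0.084, but the median was 0.32 in replicates 1 and 2 and -0.14 in replicates 3 and 4. By array they had means of 0.63, 0.18, 0.33 and 0.057 on knockout 1 to 4, and medians over genes of 0.34, -0.053, 0.089 and -0.035. Their summed signal ran from 165755 to 209753 in wild type and from 185698 to 252625 in the knockout, so hepatocyte RNA was plain on every array. B lymphoid markers had a median of -0.47 (6 of 6 tested below 0), with -0.39 in replicates 1 and 2 and -0.52 in replicates 3 and 4. Their means were -1.21, 0.083, -0.36 and -0.30 on knockout 1 to 4 and ran from -0.53 to 0.54 in wild type. Megakaryocyte markers had a median of -0.24 (5 of 5; -0.32 and -0.17 in the pairs) and granulocyte markers of -0.29 (8 of 10; -0.22 and -0.34). Macrophage (3 of 7 below 0, median 0.087; 0.35 and -0.11 in the pairs), endothelial (4 of 6, -0.11; 0.14 and -0.26) and mesenchymal markers (3 of 5, -0.19; -0.37 and -0.27) were mixed. No list of cell markers held a called gene. At an unadjusted p under 0.05 (limma), 2 hepatocyte markers were higher, and 3 granulocyte, 2 mesenchymal and 1 each of the B lymphoid, megakaryocyte and endothelial markers were lower. No marker was listed at 0, and the part of these cell types in the result was not tested.

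**Figure D4:**
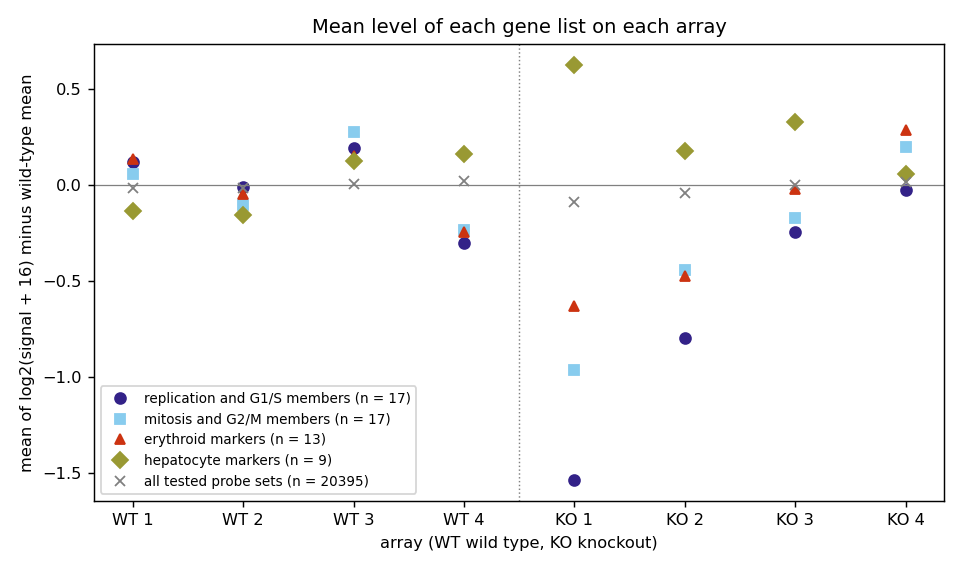
Mean over genes of log2(signal + 16) minus the wild-type mean, on each array, for replication members, mitosis members, erythroid markers, hepatocyte markers and all tested probe sets. On knockout 1 the erythroid mean is -0.63 beside -1.54 for replication and -0.96 for mitosis, and on knockout 4 it is 0.29 beside -0.024 and 0.20.

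The members followed their own mean over the 8 arrays closely, with correlations from 0.585 (Nusap1) to 0.995 (Cdt1) and a median of 0.958, as a description of 8 arrays that include the low knockouts 1 and 2. Each member is part of that mean, which raises its correlation, and the other genes are not, so their correlations are not on equal terms. Among 10664 other tested genes the 5 with the most similar pattern were the S phase kinase gene Tlk1 (0.994), Fam78a (0.994), the deubiquitinase gene Usp7 (0.991), the potassium channel gene Kcnn4 (0.989) and Cops7b (0.988). They were picked for this likeness, so no test applies, and 1 in 20 of the other genes exceeded 0.854. Their log2 fold changes were -0.17, -0.54, -0.31, -0.80 and -0.19 in that order. They ran from -1.45 (Kcnn4) to -0.35 (Tlk1) in replicates 1 and 2 and from -0.15 (Kcnn4) to 0.019 (Usp7) in replicates 3 and 4.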

How the data were processed

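RNA of 4 wild-type and 4 knockout livers was read on 1 array each. Per the labels, the deposited signal intensities come from the Affymetrix software GCOS 1.2 at default settings, with a scaling target of 500; with the lowest and highest 2% of signals dropped, each array's mean was 500.0. Other upstream steps are not given in the sources used here, and the table holds no detection calls. Scaling to a common mean makes values relative to all other transcripts.

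Of 45101 probe sets, 64 controls were left out; 34945 had 1 gene in the platform's annotation, updated by Entrez identifier to RefSeq symbols, 932 several and 9160 none. The 20395 probe sets that reached a signal of 200 on 4 or more arrays were compared as log2(signal + 16) with limma 3.58.1 in R 4.3.3 (intensity trend, two-sided), called at a Benjamini-Hochberg adjusted p under 0.05. Standard errors are limma's. The labels call the wild-type pups littermates without saying which pups shared a litter, and p-values measure only the spread between these samples. Precision is set by the 4 arrays per group, with a median standard error of 0.25 for the members and 0.19 over all probe sets. Of the 34 members, 11 rest on probe sets of the x or s type, which can bind related transcripts. The fit was tested on simulated data.

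Members, lists and tests were chosen with earlier results of these data known. Values on every array are given for the 4 members of each role with the smallest p and the 2 with the largest, and for those called by the interaction test; from the other replication, mitosis and cell cycle lists, called genes or else the 2 with the smallest p are named. The cell marker lists are given by their summaries. Array values of Tyms, Fen1 and Mki67 were chosen after their values were seen. So were Rrm1, the erythroid examples, the genes named beside Ccnd1, and the second and further probe sets. Groups came from the sample titles. Alternatives were other pseudocounts, filters, normalizations, limma settings and probe set choices, blocks, and each array left out. Figures were made with matplotlib 3.10.9.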

Additional observations from a re-analysis of the deposited data

Results flagged for a closer look

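The knockout effect on Gins2 differed between the pairs of replicates by 3.01 on the log2 scale, by the interaction test given above. The adjusted p was 0.0410, and the call was lost without wild type 1, 2, 3 or 4 and without knockout 1, 3 or 4. The low signals were those of knockout 1 and 2, at 128 and 108 beside 699 to 1113 in wild type.

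For Bub1b, wild type 3 (1146) stood apart from the other wild-type arrays (781 to 816), with a gap of 0.887 of the range of the group on the log2 scale. Of 30 groups of 4 values examined in this way, chance flags about 1 in 20.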

How the results depend on the processing

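The count of members called, 0, was the same in all other settings run except replicates 1 and 2 alone, which called 1. The median over members kept its sign in all 25, moved to -0.045 in replicates 3 and 4 alone, and ran from -0.65 to -0.25 with 1 array left out. Replication minus mitosis (-0.31) stayed below 0 in all 28: it was -0.54 in replicates 1 and 2 alone and -0.074 in replicates 3 and 4 alone, and ran from -0.39 to -0.22 with 1 array left out. Of the 12 members whose array values are given, in replicates 3 and 4 alone Gins2 (0.014), Ccne2 (0.45), Ccna2 (0.067), Bub1b (0.15) and Plk1 (0.063) turned above 0, as did Cdc20, Aurka, Mcm4, Nusap1 and Kif11 (0.067 to 0.13) among the others. Plk1, which ran from -0.43 to 0.11 with 1 array left out, did so without wild type 3 (0.072) and without knockout 1 (0.11), and with the pyruvate carboxylase ratio as covariate Bub1b stood at 0.049, Plk1 at 0.14 and Aurkb at 0.048. The cause was not tested.

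Over all probe sets, 61 were called. The count was 22 with a minimum of 100, 21 with no filter, 18 without the intensity trend, 184 with the pair of replicates as a block (154 with wild type 4 left out as well), 30 in replicates 1 and 2 alone and 2 in replicates 3 and 4 alone. With 1 array left out it ran from 2 to 334: 2 without wild type 2 or 3 or knockout 2 or 3, 6 without wild type 4, 22 without knockout 1 and 334 without knockout 4. The interaction test called 2 probe sets; 1 with a pseudocount of 64 or no trend, 0 with no filter or quantile normalization, and 0 to 22 with 1 array left out (22 without knockout 2, 5 without wild type 3). A median over the probe sets of a gene gives no count of calls.

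Replicate numbers are shared between the groups. Same-numbered arrays deviated together with correlations of 0.22, 0.40, 0.34 and 0.05, so the numbers were not taken to pair the samples, and wild type 3 correlated best with knockout 4 (0.37). With the replicate number as a block 56 probe sets and 0 members were called, and Ccnd1 lost its call (adjusted p = 0.0858).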
